A study of Mus musculus with 4 samples.

Results

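The genes described here are 10 genes of melanocyte pigmentation, found in the data by their symbols from a list drawn up with earlier results of these data known: *Tyr*, *Tyrp1*, *Dct*, *Pmel*, *Mlana*, *Mitf*, *Oca2*, *Slc45a2*, *Mc1r* and *Asip*. All 10 were found among the 24346 gene symbols of the RNA sequence data, *Asip* under its older mouse symbol *a*, the nonagouti locus. The study asked whether 7-ketocholesterol (7KC), an oxidized cholesterol, added to a diet that induces steatohepatitis (NASH diet) worsens psoriasis-like dermatitis caused by imiquimod (IMQ), an agonist of the innate immune receptor TLR7. Dorsal skin of wild type male C57BL/6 mice, 8 weeks old when the diet began, was sequenced after 3 weeks of diet and 1 day of IMQ cream. The Cont-IMQ group (2 libraries) received the NASH diet, a high-fat, high-cholesterol, high-sucrose diet with bile salt, and the 7KC-IMQ group (2 libraries) received the same diet with 7KC. Both groups carried no engineered allele, and both were treated with IMQ, so the comparison holds no untreated skin and no vehicle. The labels name the 2 libraries of a group as replicates without saying that they come from separate mice, so p-values measure only the spread between these libraries.

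Melanin is made by melanocytes, cells of neural crest origin. In the trunk skin of the mouse, pigment-producing melanocytes sit mostly in the bulb of the hair follicle and make melanin while the follicle grows. Alpha-melanocyte stimulating hormone acts on the receptor MC1R, which raises the transcription factor MITF, and MITF binds the M-box and related E-box sequences before the genes of the pigment enzymes. The agouti signaling protein, encoded by *Asip*, blocks MC1R and switches the pigment from black to yellow. C57BL/6 mice are black because their *Asip* allele is nonagouti, a loss of function in the hair follicle.

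The core letters of the M-box, the sequence named above, are shown first. Whether they bear on the levels was not tested. Windows of 300 bases (250 before to 50 after a RefSeq start, GRCm38.p6) were at hand for 7 of the 10 genes, 9 windows in all, of which 3 belong to *Mitf*. *Pmel*, *Mlana* and *Slc45a2* had no window. The letters TCATGTG, searched on both strands, occurred in 4 of the 7 genes (*Tyr*, *Tyrp1*, *Dct* and *Mc1r*) and 4 of their 9 windows. The share over all 32851 windows was 3.77%. The shorter CATGTG, which every TCATGTG contains, occurred also in *Oca2*. That gave 5 of the 7 genes and 5 of the 9 windows, against 14.2% of all windows. CACGTG occurred in 0 of the 7 genes and 0 of the 9 windows, against 7.15% of all windows. As the M-box is already known before pigment enzyme genes, these counts are no test of enrichment. The stretches below run 5′ to 3′ on the strand of the gene and end at the base before the start, and the capitals mark TCATGTG or, on the other strand, its reverse complement CACATGA.
Tyr (chr7:87493513-87493564, minus strand): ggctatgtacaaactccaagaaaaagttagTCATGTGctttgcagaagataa
Tyrp1 (chr4:80834136-80834212, plus strand): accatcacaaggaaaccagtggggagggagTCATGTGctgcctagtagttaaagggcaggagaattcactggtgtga
Mc1r (chr8:123407000-123407081, plus strand): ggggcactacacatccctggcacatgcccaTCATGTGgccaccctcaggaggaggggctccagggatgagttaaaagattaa
Dct (chr14:118052247-118052496, minus strand): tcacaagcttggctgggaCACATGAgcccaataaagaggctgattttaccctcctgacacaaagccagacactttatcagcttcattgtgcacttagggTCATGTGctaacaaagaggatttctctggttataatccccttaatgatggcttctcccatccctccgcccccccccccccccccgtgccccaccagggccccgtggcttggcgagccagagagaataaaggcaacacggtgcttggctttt
The first base of the motif lay 22 bases before the RefSeq start in *Tyr*, 47 in *Tyrp1*, 52 in *Mc1r* and 151 in *Dct*. *Dct* held a further match on the other strand at 232 bases. In the annotation used for gene positions below, *Tyrp1* begins at 80834123, so its stretch lies within that annotated gene. A match of letters is a description and not a measured binding site.

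Values are FPKM as deposited, a read number scaled to the length of the gene and to the size of the library, and pairs of values below are in the order replicate 1, replicate 2. Depth was not in the files and was estimated from the steps of 1 read among low values, which gave between 14950000 and 16200000 reads per library, and values worth at most 3 reads were taken to lie at the floor, which covers counting error only. Differences were tested on log2(FPKM + 1) by limma in the 15896 genes with a mean of at least 0.1 FPKM, a filter that all 10 pigmentation genes passed, with Benjamini-Hochberg adjustment at 0.05. Adding 1 makes the differences of genes of low level smaller than their true ratios. With 2 libraries a group, the smallest two-sided p-value of an exact permutation test is 0.333. Keratinocyte markers were abundant in all libraries, with *Krt14* between 4132 and 5700 FPKM, and the melanocyte markers *Tyr*, *Tyrp1*, *Dct*, *Pmel*, *Mlana*, *Sox10* and *Kit* were above 0 in all 4 libraries. Skeletal muscle RNA was also present in all 4 libraries, with *Acta1* between 2106 and 3133 FPKM.

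Most pigmentation genes differed more between the Cont-IMQ libraries than between the diets. In 8 of the 10 genes, both 7KC-IMQ libraries lay between the Cont-IMQ libraries, with Cont-IMQ replicate 1 the lowest and Cont-IMQ replicate 2 the highest of the 4. Among all genes tested, 8.85% had this arrangement. These 8 genes were also in one further order, as 7KC-IMQ replicate 1 stood above 7KC-IMQ replicate 2 in each, an order that 4.70% of all genes had. *Mitf* and *Asip* were the exceptions and were lower in both 7KC-IMQ libraries. In bulk skin, the number of cells that express a gene and its RNA per cell cannot be told apart.

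**Figure D1:**
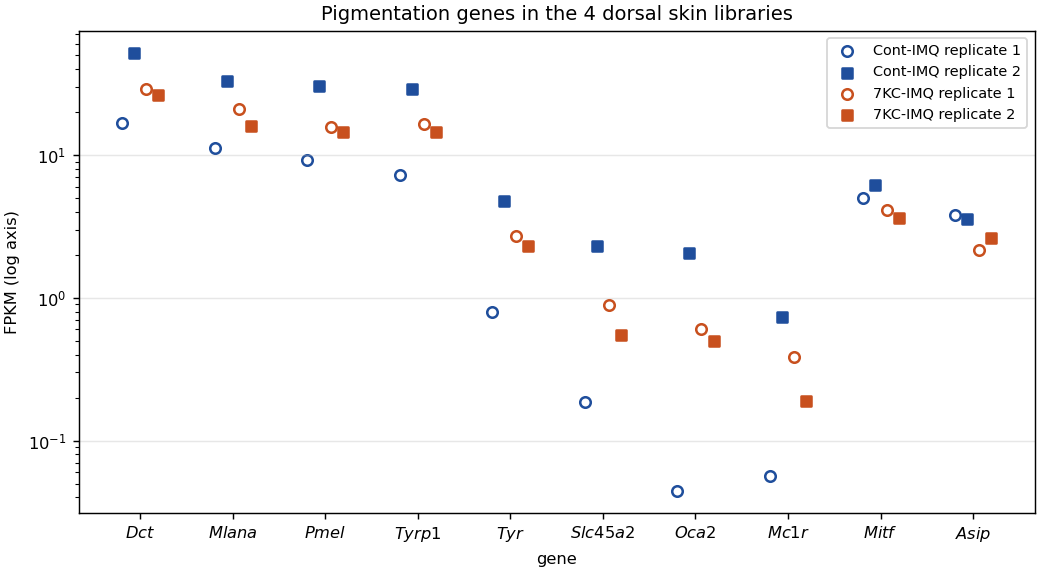
FPKM of the 10 pigmentation genes (horizontal axis) on a log axis, with 1 point per library, blue for Cont-IMQ, orange for 7KC-IMQ, open circles for replicate 1 and squares for replicate 2. From *Dct* to *Mc1r*, both orange points lie between the blue ones, while in *Mitf* and *Asip* both blue points lie above the orange ones.

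Of the melanin-forming enzymes, tyrosinase (*Tyr*, chromosome 7 of GRCm38 from 87424771 to 87493512) catalyzes the first and rate-limiting step, the oxidation of tyrosine. The FPKM of *Tyr* was 0.794 in the first and 4.77 in the second Cont-IMQ library, and 2.69 in the first and 2.31 in the second 7KC-IMQ library, from an estimated 70.3, 420.9, 255.1 and 201.8 reads. The Cont-IMQ libraries thus differed 6.01-fold from each other, whereas the 7KC-IMQ libraries differed 1.17-fold. The group means were 2.78 ± 2.81 and 2.50 ± 0.272 FPKM (SD, n = 2), lower in 7KC-IMQ skin. On the log2(FPKM + 1) scale of the test, the difference was instead positive, at 0.12 (standard error 0.57, adjusted p = 0.949 in limma). Its direction thus depended on the scale.
*Dct* (chromosome 14 from 118012790 to 118052244) encodes dopachrome tautomerase, which acts downstream of tyrosinase in the synthesis of black eumelanin. It had 16.7 and 51.7 FPKM in Cont-IMQ skin against 29.0 and 26.1 FPKM in 7KC-IMQ skin. Its level was the highest of the 10 genes in every library. The log2 difference was -0.10, with a 95% interval from -1.48 to 1.28 (adjusted p = 0.954 in limma).
*Tyrp1* (chromosome 4 from 80834123 to 80851719) encodes the tyrosinase-related protein of the eumelanin branch, which also stabilizes tyrosinase. The values were 7.19 and 28.8 FPKM in Cont-IMQ skin and 16.5 and 14.6 FPKM in 7KC-IMQ skin, with a log2 difference of 0.08 (adjusted p = 0.972 in limma). Its sign, too, was opposite to that of the FPKM means, 17.98 in Cont-IMQ and 15.52 in 7KC-IMQ skin. Again the Cont-IMQ libraries stood on either side of both 7KC-IMQ libraries. The 3 related enzymes kept similar proportions in 3 of the libraries, where *Dct* stood at 1.76 to 1.80 times *Tyrp1* and 10.8 to 11.3 times *Tyr*. In Cont-IMQ replicate 1, in which all 3 were lowest, these ratios were 2.33 and 21.1.

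Of the structural proteins of the melanosome, *Pmel* (chromosome 10 from 128704195 to 128720238) encodes the amyloid fibrils on which melanin is laid down. It had 9.28 and 30.5 FPKM in Cont-IMQ skin and 15.8 and 14.5 FPKM in 7KC-IMQ skin. The log2 difference between the groups was -0.16 (standard error 0.54, adjusted p = 0.928 in limma). The annotated gene overlaps *Cdk2* and *Dgka* on the opposite strand at its ends, and whether strand was used in counting is not given in the sources used here.
*Mlana* (chromosome 19 from 29697824 to 29708634) encodes a small melanosomal membrane protein that is required for the processing of PMEL. Its values were 11.3 and 32.8 FPKM against 21.1 and 16.0 FPKM, and the log2 difference was -0.08 (adjusted p = 0.965 in limma). The 7KC-IMQ libraries differed 1.32-fold in *Mlana* and 1.09-fold in *Pmel*, in both cases much less than the 2.91-fold and 3.29-fold between the Cont-IMQ libraries. *Pmel* stood at 0.750 to 0.930 times *Mlana* in all 4 libraries.

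The transporters were lower in level and further apart. *Oca2* (chromosome 7 from 56239760 to 56536518) encodes the P protein, an anion channel that keeps the melanosome at a pH at which tyrosinase works. It had 0.0445 FPKM in Cont-IMQ replicate 1, an estimated 2.0 reads and under the floor, and 2.07 FPKM in replicate 2, an estimated 91.5 reads. The 7KC-IMQ libraries had 0.603 and 0.496 FPKM. Since the lowest value rests on so few reads, the ratio between the Cont-IMQ libraries is imprecise, and the log2 difference between the groups was -0.21 with an interval from -1.59 to 1.17 (adjusted p = 0.895 in limma).
*Slc45a2* (chromosome 15 from 11000721 to 11029233) encodes a transporter of the melanosome membrane whose loss gives the underwhite coat. It had 0.187 and 2.31 FPKM in Cont-IMQ skin, from an estimated 7.9 and 97.1 reads, and 0.894 and 0.544 FPKM in 7KC-IMQ skin. Cont-IMQ replicate 2 thus stood 12.4-fold above replicate 1. Between the groups the log2 difference was -0.21 (adjusted p = 0.889 in limma).

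The receptor gene *Mc1r* (chromosome 8 from 123407107 to 123410744) had the lowest mean level of the 10. It had 0.0562 FPKM in Cont-IMQ replicate 1, an estimated 2.9 reads and under the floor, and 0.738 FPKM in Cont-IMQ replicate 2. The 7KC-IMQ libraries had 0.385 and 0.190 FPKM, an estimated 21.5 and 9.8 reads. The order of the libraries was that of the enzyme genes, and the log2 difference was -0.08 (standard error 0.27, adjusted p = 0.928 in limma). *Mc1r* lies within a longer annotated gene on the same strand (*Gm20388*), so its reads could be shared.
*Asip* (chromosome 2 from 154791402 to 155051012), the antagonist of MC1R, had 3.79 and 3.55 FPKM in Cont-IMQ skin and 2.15 and 2.61 FPKM in 7KC-IMQ skin. Both 7KC-IMQ libraries were below both Cont-IMQ libraries. Such a separation was found in 2 of the 10 pigmentation genes (*Asip* and *Mitf*) and 22.9% of all genes tested, and the opposite one in 0 of the 10 and 23.9% of all genes. The log2 difference was -0.47 (standard error 0.12, 95% interval -0.79 to -0.15, unadjusted p = 0.014, adjusted p = 0.356 in limma). These values rest on an estimated 18.5 to 30.5 reads per library, and the annotated locus overlaps *Raly* and *Gm14226* on the same strand. Unlike in the enzyme genes, the highest value of *Asip* was in Cont-IMQ replicate 1.

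*Mitf* (chromosome 6 from 97807052 to 98021349), the transcription factor that directs the pigment genes, had 5.01 and 6.20 FPKM in Cont-IMQ skin and 4.09 and 3.65 FPKM in 7KC-IMQ skin. The Cont-IMQ libraries differed only 1.24-fold, and both were above the 7KC-IMQ libraries. The means were 5.60 ± 0.844 and 3.87 ± 0.312 FPKM (SD, n = 2), a log2 difference of -0.44 (standard error 0.14, 95% interval -0.80 to -0.08, unadjusted p = 0.0272, adjusted p = 0.365 in limma). *Mitf* is transcribed from several promoters in different cell types, and the value of the gene sums them. Per unit of *Mitf*, the enzyme genes were not constant, spanning 2.49-fold (*Dct*), 3.23-fold (*Tyrp1*) and 4.85-fold (*Tyr*) over the 4 libraries. *Tyr* stood at 0.159 times *Mitf* in Cont-IMQ replicate 1, 0.769 in Cont-IMQ replicate 2, and 0.659 and 0.633 in the 7KC-IMQ libraries.
Over all genes tested, 1 gene passed the adjusted threshold in limma, 0.00629% of them, and 13.0% had an unadjusted p-value under 0.05. None of the 10 pigmentation genes passed after adjustment in limma (adjusted p from 0.356 to 0.972), and 2 of them, *Mitf* and *Asip*, had an unadjusted p-value under 0.05, both lower in 7KC-IMQ skin, as were 5.47% of all genes. The median log2 difference of the 10 genes was -0.13, beside -0.01 over all genes tested. A miss of the threshold does not show that the diets act alike, since for *Tyrp1* the interval ran from -1.56 to 1.72.

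**Figure D2:**
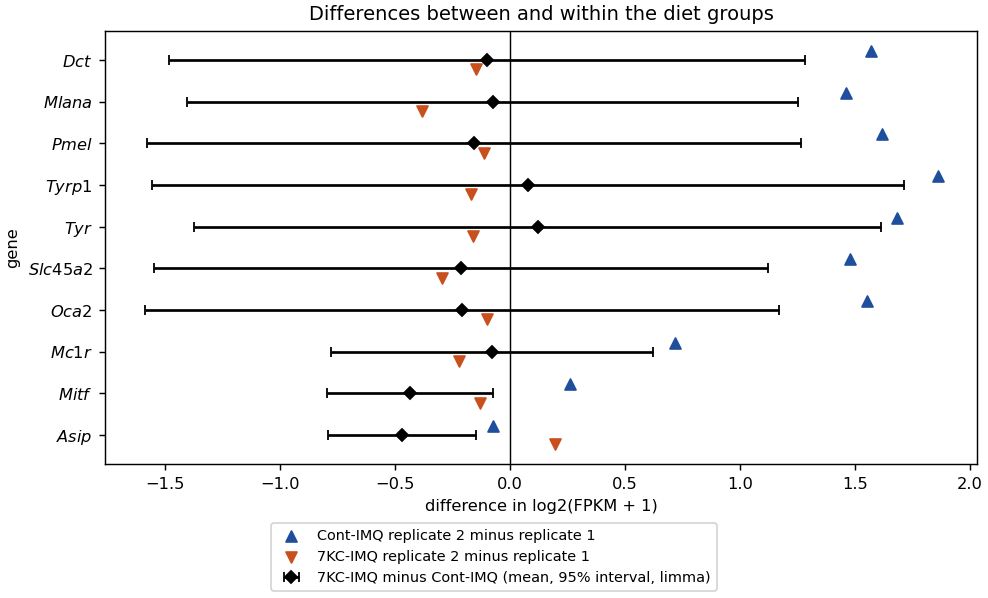
Differences in log2(FPKM + 1) for each of the 10 genes (vertical axis), with black diamonds and bars for 7KC-IMQ minus Cont-IMQ and its 95% interval in limma, and triangles for replicate 2 minus replicate 1 within each group. In 8 genes the blue triangle of the Cont-IMQ pair lies farther from 0 than the diamond, and only the intervals of *Mitf* and *Asip* leave out 0.

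Within the groups, 7 of the 10 genes were at least 2-fold higher in Cont-IMQ replicate 2 than in replicate 1 on the log2(FPKM + 1) scale, beside 1.38% of all genes tested, and 0 of the 10 were 2-fold lower there, beside 0.522%. Between the 7KC-IMQ libraries, 0 of the 10 were 2-fold apart, beside 0.503% of all genes. The median of the 10 genes was 1.52 between the Cont-IMQ libraries and -0.15 between the 7KC-IMQ libraries, where all genes gave 0.00 in both pairs. For the 6 genes of the shared order that were above the floor in every library, Cont-IMQ replicate 2 stood between 2.91-fold (*Mlana*) and 12.4-fold (*Slc45a2*) above replicate 1, and no ratio is given for *Oca2* and *Mc1r*. These comparisons hold 1 library on each side and have no test.

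Other genes of the melanocyte were looked at in lists. Of 34 genes of melanosome formation and transport, 6 had Cont-IMQ replicate 1 lowest and replicate 2 highest, beside 8.85% of all genes tested. At least 2-fold apart in that direction were 3 of them, *Trpm1*, *Slc24a5* and *Slc24a4*, beside 1.38% of all genes. *Trpm1*, a melanocyte cation channel, had 0.790 and 9.23 FPKM in Cont-IMQ skin and 3.73 and 2.84 FPKM in 7KC-IMQ skin. *Slc24a5*, an ion exchanger of melanosomes, had 0.409 and 2.97 FPKM against 0.869 and 0.906 FPKM. Both followed the library order of extremes seen in the enzyme genes. In the complex that carries melanosomes, the motor *Myo5a* lay between 6.32 and 7.78 FPKM, while *Rab27a*, which recruits it, had 10.2 and 7.17 FPKM in Cont-IMQ skin against 5.36 and 6.78 FPKM, and the linker *Mlph* had 0.666 and 1.24 FPKM against 0.849 and 0.921 FPKM. Of these 3 genes, *Mlph* had the arrangement of the enzyme genes. The median difference of the list between the Cont-IMQ libraries was 0.04.
Between the diets, 0 of the 34 genes passed the adjusted threshold in limma, and 3 had an unadjusted p-value under 0.05, beside 13.0% of all genes. Without overlap, 5 were higher and 6 lower, smaller shares than the 23.9% and 22.9% of all genes tested. *Slc7a11*, the cystine transporter that also serves yellow pigment synthesis, had 5.84 and 4.59 FPKM in Cont-IMQ skin and 8.48 and 15.3 FPKM in 7KC-IMQ skin, a log2 difference of 1.01 (adjusted p = 0.356 in limma). *Gpnmb*, a relative of *Pmel* that macrophages also express, had 49.9 and 55.3 FPKM against 42.0 and 43.9 FPKM (log2 difference -0.29, adjusted p = 0.356 in limma). *Mfsd12*, which takes cysteine into melanosomes, had 5.91 and 4.34 FPKM against 3.61 and 2.95 FPKM (log2 difference -0.51, adjusted p = 0.366 in limma). None of these 3 genes shared the library order of *Pmel*.

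Of 16 regulators and receptors of the melanocyte lineage, 4 had the arrangement of the enzyme genes, beside 8.85% of all genes tested. In Cont-IMQ skin, 3 were at least 2-fold higher in replicate 2 (*Ednrb*, *Edn3* and *Lef1*), beside 1.38% of all genes. The endothelin receptor *Ednrb* had 2.64 and 7.25 FPKM in Cont-IMQ skin and 3.28 and 3.71 FPKM in 7KC-IMQ skin, and its ligand *Edn3* had 0.374 and 2.08 FPKM against 0.809 and 0.783 FPKM. The lineage factor *Sox10* was much closer between libraries, with 2.12 and 2.51 FPKM against 2.08 and 1.42 FPKM, and so was the receptor *Kit*, with 1.42 and 2.35 FPKM against 1.46 and 1.30 FPKM. *Dct* therefore stood at 7.90 and 20.6 times *Sox10* in Cont-IMQ skin and 14.0 and 18.5 times in 7KC-IMQ skin. None of the 16 passed the adjusted threshold in limma between the diets (2 had an unadjusted p-value under 0.05), where 2 were higher and 5 lower without overlap, beside 13.0% of all genes with such a p-value and 23.9% and 22.9% without overlap. *Irf4*, a transcription factor that acts with MITF on *Tyr*, had 5.51 and 5.80 FPKM against 4.11 and 3.15 FPKM (log2 difference -0.53, adjusted p = 0.356 in limma). *Mc5r*, a melanocortin receptor of sebaceous glands, had 2.86 and 2.62 FPKM against 1.34 and 1.38 FPKM (log2 difference -0.66, adjusted p = 0.352 in limma).
In the 4 genes of pigment type switching, *Corin*, a protease of the dermal papilla that limits agouti signaling, had 0.376 and 2.05 FPKM in Cont-IMQ skin and 1.39 and 1.34 FPKM in 7KC-IMQ skin. *Mgrn1*, *Atrn* and *Atrnl1* act with or resemble parts of the agouti pathway. These 3 of the 4 genes were lower without overlap in 7KC-IMQ skin, beside 22.9% of all genes tested. They were lower by at most 0.09 on the log2 scale, with adjusted p-values from 0.694 to 0.770 in limma. In the relatives of *Mitf*, *Tfeb* had 9.73 and 12.2 FPKM against 9.18 and 9.39 FPKM, *Tfe3* lay between 22.3 and 24.2 FPKM, and *Tfec* between 0.248 and 0.309 FPKM.

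**Figure D3:**
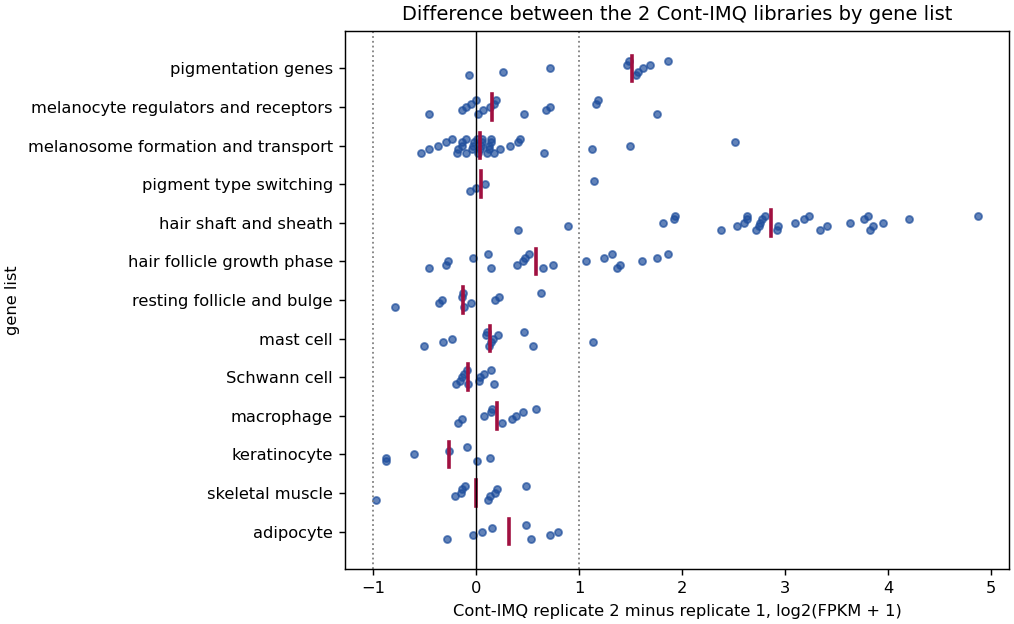
Difference between Cont-IMQ replicate 2 and replicate 1 in log2(FPKM + 1) for every tested gene of 13 lists, with 1 point per gene, a red bar at the median of the list and dotted lines at a 2-fold difference. The pigmentation genes (median 1.52) and the hair shaft and sheath genes (median 2.86) lie to the right of the other lists, whose medians are between -0.27 and 0.58.

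Hair shaft and sheath genes had the arrangement of the pigment genes in most members, and growth phase genes in some. Of 30 genes of the hair shaft and inner root sheath, 28 had Cont-IMQ replicate 1 lowest and replicate 2 highest, and 28 were at least 2-fold apart. Their summed level was 139 and 1849 FPKM in Cont-IMQ skin and 518 and 460 FPKM in 7KC-IMQ skin. The inner root sheath keratin *Krt25* had 31.6 and 442 FPKM against 134 and 122 FPKM. *Krt35*, a keratin of the hair matrix and cuticle, had 7.63 and 72.7 FPKM against 28.5 and 25.2 FPKM. In Cont-IMQ replicate 1, 4 of the 30 genes were listed at 0 (*Krt74*, *Krt86*, *Krtap4-1* and *Krtap15*), and *Krtap15* was listed at 0 in both 7KC-IMQ libraries as well. *Dct* stood at 0.530 times *Krt25* in Cont-IMQ replicate 1 and at 0.117 in replicate 2. Not every hair keratin ranged this widely, as *Krt84* spanned 2.88-fold over the 4 libraries and *Dct* 3.09-fold.
Of 20 genes of the follicle growth phase, 11 had the same arrangement and 8 were at least 2-fold higher in Cont-IMQ replicate 2. Among all genes tested, these shares were 8.85% and 1.38%. *Shh*, the signal that drives growth of the follicle, had 1.21 and 4.71 FPKM in Cont-IMQ skin against 3.37 and 3.34 FPKM, and *Msx2*, a transcription factor of the hair matrix, had 3.55 and 12.9 FPKM against 6.42 and 5.92 FPKM. The remaining 9 of the 20 did not share the arrangement, and *Gata3*, *Sostdc1*, *Axin2* and *Igf1* were lower in Cont-IMQ replicate 2 than in replicate 1, with *Gata3*, a factor of the inner root sheath, at 39.6 and 32.1 FPKM against 32.6 and 19.2 FPKM. Between the diets, 1 hair shaft gene was higher without overlap, and 2 growth phase genes were higher and 3 lower (23.9% and 22.9% of all genes). None of these passed the adjusted threshold in limma. An unadjusted p-value under 0.05 in limma was found in 0 of the 30 and 1 of the 20, beside 13.0% of all genes. Of 10 genes of the resting follicle and the bulge, where melanocyte stem cells reside, 4 were lower without overlap between the diets, beside 22.9% of all genes. The arrangement of the pigment genes was found in 3 of the 10 (*Lhx2*, *Sox9* and *Foxc1*), beside 8.85% of all genes. In Cont-IMQ skin, 0 of the 10 were 2-fold apart. The bulge keratin *Krt15* had 216 and 172 FPKM against 123 and 96.9 FPKM (log2 difference -0.81, adjusted p = 0.352 in limma). The part of the hair follicle in the levels of the pigment genes was not tested.

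**Figure D4:**
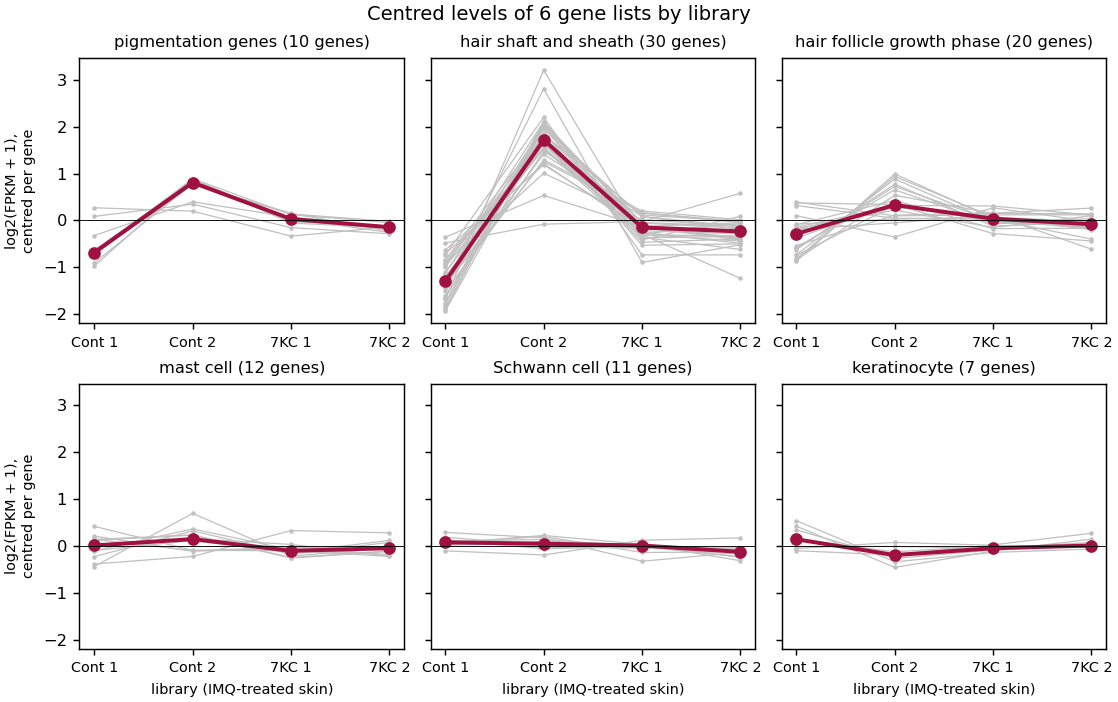
Levels of 6 gene lists in the 4 libraries as log2(FPKM + 1) minus the mean of each gene, with grey lines for single genes and a red line for the median. Pigmentation genes run from -0.68 in Cont-IMQ replicate 1 to 0.81 in Cont-IMQ replicate 2 and hair shaft genes from -1.29 to 1.72, whereas the mast cell and Schwann cell medians stay within 0.15 of 0.

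Markers of other cells that use *Mitf*, *Sox10* or *Kit* were set beside these genes. The summed level of 12 mast cell genes was 115 and 114 FPKM in Cont-IMQ skin and 97.5 and 102 FPKM in 7KC-IMQ skin, with 4 genes lower and 1 higher without overlap. The mast cell tryptase *Tpsb2* had 19.5 and 20.8 FPKM against 14.5 and 16.1 FPKM (log2 difference -0.37, adjusted p = 0.356 in limma), whereas *Hdc*, the histamine-forming enzyme, had the widest difference of the list and the opposite direction, with 3.61 and 4.15 FPKM against 6.55 and 6.30 FPKM (log2 difference 0.61, adjusted p = 0.352 in limma). The 11 Schwann cell genes tested summed to 158 and 155 FPKM against 150 and 138 FPKM, with 6 lower and 1 higher without overlap, and *Gfap* was below the filter and listed at 0 in Cont-IMQ replicate 1. Of 10 macrophage genes, 4 were lower without overlap, and their sum was 1002 and 1222 FPKM against 950 and 1007 FPKM. Over all genes tested, 22.9% were lower and 23.9% higher without overlap. The enzyme genes' arrangement was found in 2 of the 12 mast cell genes (*Tpsab1* and *Fcer1a*), beside 8.85% of all genes. It was found in 0 of the Schwann cell and 0 of the macrophage genes. Of the mast cell genes, 1 was at least 2-fold higher in Cont-IMQ replicate 2 than in replicate 1, beside 1.38% of all genes. This was *Fcer1a*, a receptor gene, with 0.557 and 2.41 FPKM against 0.819 and 1.05 FPKM. The part of mast cells, nerve and macrophages in the level of *Mitf* was not tested.
The summed level of 7 keratinocyte genes was highest in Cont-IMQ replicate 1, at 23742 FPKM, and lowest in replicate 2, at 15814 FPKM, with 18430 and 20422 FPKM in 7KC-IMQ skin. The difference between the Cont-IMQ sums lay mostly in the keratins of the upper layers, *Krt10* with 8444 and 4597 FPKM and *Krt1* with 5867 and 3191 FPKM. *Itga6*, an integrin of basal cells, lay between 51.4 and 56.0 FPKM, and *Trp63*, a basal cell factor, had the arrangement of the pigment genes over a narrow range, from 101.1 to 110.8 FPKM. The part of keratinocytes in the levels of the pigment genes was not tested. Of 10 skeletal muscle genes, 2 were higher and 3 lower in 7KC-IMQ skin without overlap. Of 8 adipocyte genes, 4 were higher and 0 lower, beside 23.9% higher and 22.9% lower of all genes. In limma, 0 genes of either list passed the adjusted threshold. An unadjusted p-value under 0.05 in limma was found in 3 muscle and 2 adipocyte genes, beside 13.0% of all genes. None of the muscle genes and 1 of the adipocyte genes had the arrangement of the enzyme genes, beside 8.85% of all genes.

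Outside the lists, the genes whose values were most like the pigment genes over the 4 libraries were taken by the smallest distance between centred log2(FPKM + 1) values and the median of the 7 pigmentation genes with a mean of at least 1 FPKM. The 10 nearest were *Dusp2*, *Syt4*, *Msx1os*, *Col11a1*, *Msi1*, *Dsg4*, *Agt*, *Golga7b*, *Pck1* and *Dclk3*, at distances from 0.0884 to 0.231. *Dusp2*, a phosphatase of MAP kinases, was the nearest, with 1.80 and 6.37 FPKM in Cont-IMQ skin and 3.53 and 3.13 FPKM in 7KC-IMQ skin. *Dsg4*, a desmoglein of the hair shaft, had 0.317 and 3.34 FPKM against 1.13 and 0.944 FPKM. For comparison, *Msx2* lay at 0.113. Of the 7 genes that set the median, *Dct* was nearest, at 0.0531. Farther from it than all 10 outside genes were *Tyr* at 0.237, *Tyrp1* at 0.295, *Mitf* at 0.954 and *Asip* at 1.21. A likeness over 4 libraries is a description.

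The direction of the diet comparison depended on which Cont-IMQ library was kept. Without Cont-IMQ replicate 1, all 10 genes were lower in 7KC-IMQ skin, with a median of -0.83 on the log2 scale, and without Cont-IMQ replicate 2, 8 genes were higher, with a median of 0.61. *Tyrp1* changed from 0.08 to -0.85 and 1.01 in these fits, and *Dct* from -0.10 to -0.88 and 0.69. *Mitf* and *Asip* were lower in 7KC-IMQ skin whichever library was left out, with log2 differences from -0.57 to -0.30 and from -0.57 to -0.37. The signs with 1 Cont-IMQ library left out, and those of *Mitf* and *Asip* throughout, follow from the library order given above. They are therefore no separate check. No p-values are given for these fits, since the spread of each gene then comes only from the group with 2 libraries. With 1 Cont-IMQ library left, that is the 7KC-IMQ pair, which was much closer for the genes of the shared order. For *Tyrp1*, the SD was 1.367 FPKM in 7KC-IMQ skin and 15.25 FPKM in Cont-IMQ skin.

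**Figure D5:**
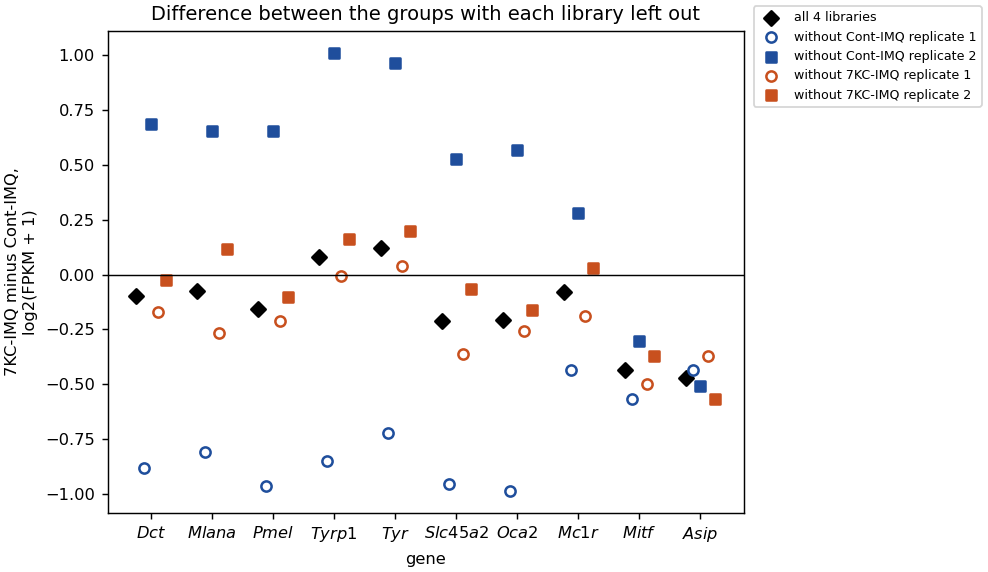
Difference in log2(FPKM + 1) between 7KC-IMQ and Cont-IMQ for each of the 10 genes with all 4 libraries (black) and with each library left out. Leaving out Cont-IMQ replicate 1 (open blue circles) puts all 10 genes below 0, and leaving out Cont-IMQ replicate 2 (blue squares) puts 8 above 0, whereas *Mitf* and *Asip* stay below 0 throughout.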

How the data were processed

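RNA sequence analysis of dorsal skin was available as 4 tables, one per library, for 2 libraries in each group. Per the labels and the paper, the authors prepared stranded mRNA libraries, aligned single-end reads of 75 bases with TopHat, Bowtie2 and SAMtools (genome build mm10), and deposited FPKM values per gene symbol from Cufflinks, for which the processing notes name Cuffdiff 2.2.1. The gene annotation is not given in the sources used here. Replicates were not pooled. Read counts were not used, since the files hold FPKM and no count model applies.

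log2(FPKM + 1) was computed without further scaling, and the groups were compared by limma 3.58.1 (lmFit, eBayes with a variance trend; R 4.3.3) in the 15896 genes whose mean reached 0.1 FPKM. The test was checked on simulated data. For depth, read totals were tried on low values of genes with 1 annotated transcript, shortened by 199 bases, and the total giving the most whole reads was kept. Between 77.2% and 80.3% of the 443 to 458 genes used then lay within 0.1 of a whole number. Positions came from GENCODE M21 (GRCm38, also called mm10), and promoter windows from RefSeq (GRCm38.p6). Of the genes in 13 other lists, compiled by hand, *Flg* was not analysed here.

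The members and lists were chosen with earlier results of these data known. The rule for naming genes took all 10 members, at most 4 genes of each other list (highest mean, or widest difference between groups, among genes without overlap), list genes 2-fold apart within a group, and the 10 genes of nearest profile. Not all genes that the rule allows are printed, and the other list genes in the text were chosen after their values were seen. Alternatives were another pseudocount, filters, 3 scalings, no variance trend, a replicate block and leaving out each library.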

Additional observations from a re-analysis of the deposited data

How the results depend on the processing

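With a pseudocount of 0.1, *Oca2* and *Mc1r* changed direction between the groups, to 0.21 and 0.0522 on the log2 scale, and 2 genes of all tested passed the threshold as lower in place of 1. By construction, a smaller pseudocount gives more weight to values near 0, such as those of these genes in Cont-IMQ replicate 1. A filter at a mean of 1 FPKM removed *Oca2*, *Slc45a2* and *Mc1r*, so no value is given for them there. The other filters, scalings and the fit without a variance trend changed no direction, and under all of them 0 pigmentation genes passed. The same FPKM sum in each library shifted the median of all genes to -0.07 and that of the pigmentation genes from -0.13 to -0.21, and a pseudocount of 0.1 gave -0.06 for the latter.

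Leaving out 1 library at a time, the number of genes passing over the whole table ranged from 0 to 2 (higher) and from 1 to 9 (lower), and the median of the pigmentation genes from -0.83 to 0.61. The arm left with 1 library was assumed to vary like the other. The ranges were -0.72 to 0.96 for *Tyr*, -0.85 to 1.01 for *Tyrp1*, -0.88 to 0.69 for *Dct*, -0.96 to 0.65 for *Pmel*, -0.81 to 0.66 for *Mlana*, -0.99 to 0.57 for *Oca2*, -0.95 to 0.53 for *Slc45a2* and -0.44 to 0.28 for *Mc1r*. Without 7KC-IMQ replicate 1, *Tyrp1* was at -0.01, and without 7KC-IMQ replicate 2, *Mlana* was at 0.12 and *Mc1r* at 0.03.

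The labels give both groups the same replicate numbers, but do not tie a number to an animal, litter or day. Deviations from the group means of same-numbered libraries had a correlation of 0.0651 across genes, which are not independent. With the replicate number as a block, the median of the pigmentation genes stayed at -0.13, 0 of them passed, and their adjusted p-values ranged from 0.448 to 0.966 in limma. At the estimated depths, *Oca2* and *Mc1r* in Cont-IMQ replicate 1 were under 3 reads, and their level there is not resolved.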
